A study of Rattus norvegicus with 12 samples.

Results

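The cytosolic ribosomal protein genes encode the protein subunits of the ribosome that translates nuclear mRNAs. Members were the probe sets whose single gene symbol in the array annotation began with Rpl or Rps and a digit, or was Rplp0, Rplp1, Rplp2 or Rpsa, with the Rps6k kinases left out. The rule found 50 genes on 57 probe sets, of 14217 genes on 31042 probe sets other than array controls. Of these, 34 belong to the large 60S subunit and 16 to the small 40S subunit. They comprised 42 genes of the standard ribosome, 6 paralogs (Rpl26l1, Rpl39l1, Rpl3l, Rpl7l1, Rps27l and Rps4y2) and 2 pseudogenes (Rpl37-ps2 and Rps4x-ps1). No probe set carried Rplp1 or Rplp2 as its single symbol. A further 36 probe sets carried a ribosomal protein symbol together with other symbols, and no gene is named from them.

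Gene expression was measured on 12 Affymetrix Rat Genome 230 2.0 arrays in 4 groups of 3 plates. WB-F344, an epithelial line from the liver of an adult male Fischer rat, is diploid and non-tumorigenic, doubles in 42 hr and is labelled sensitive to rapamycin. WB311, a tumorigenic line that arose spontaneously from WB-F344, doubles in 15.5 hr and is labelled resistant. Both lines were grown in medium with fetal bovine serum and were exposed for 24 hr to DMSO vehicle or to 50 nM rapamycin, an inhibitor of the kinase complex mTORC1. Each line stands for 1 origin, so that line, growth rate and tumorigenicity cannot be told apart. Plates of 1 line are not separate animals, and p-values measure only the spread between plates.

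Ribosomal proteins are made in near equal numbers and assembled with ribosomal RNA in the nucleolus, and growing cells devote much of their translation to them. Their mRNAs are the best known TOP mRNAs. A TOP mRNA begins with a C followed by a run of pyrimidines, and mTORC1 controls mainly how well it is translated, through factors such as Larp1 and the 4E-binding proteins. Ribosomal protein S6, encoded by Rps6, is itself phosphorylated by the S6 kinases downstream of mTORC1. Arrays measure the amount of mRNA and not its translation. In whole cultures, fewer cells with a transcript and less of it per cell cannot be told apart.

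The start of a gene is where the TOP sequence would lie, so the 30 bases from 10 before the annotated start to 20 from it on are shown for 6 of the genes that differed most between the lines, for Rpl39 as the parent of Rpl39l1, and for the stalk protein gene Rplp0. They are RefSeq sequences of the rat build GRCr8, 5′ to 3′ on the gene's strand. Capitals mark each C that is followed by at least 4 more C or T and begins within 10 bases of the start, together with its tract.
Rpl22: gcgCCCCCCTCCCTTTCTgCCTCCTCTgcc
Rps6: CTCCTaggcggtcggctgtgtcaagatgaa
Rpl11: cttgaagcttgtttggtgctggggagcatc
Rpl12: aacatccgtCTTTTCggCTTTCggttcgga
Rpl39: taatcgcgttCTTCCggcctgtcctttctc
Rpl39l1: caggccgtcccgctatcctggtgtgtggtc
Rps27l: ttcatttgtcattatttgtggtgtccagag
Rplp0: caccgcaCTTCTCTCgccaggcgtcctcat
These lie on the plus strand at chr5:168117951-168117980 (Rpl22), chr3:36661930-36661959 (Rpl12) and chr8:76443648-76443677 (Rps27l). They lie on the minus strand at chr5:106420521-106420550 (Rps6), chr5:153560783-153560812 (Rpl11), chrX:121195877-121195906 (Rpl39), chr10:5966602-5966631 (Rpl39l1) and chr12:46718371-46718400 (Rplp0). Of the member genes, 41 had such a sequence in the RefSeq table. A C at the annotated start followed by at least 4 more C or T, whether or not the tract also reached upstream, was present in 11 of them (26.8%), against 2.63% of 27457 genes in the table. Such a C lay within 10 bases to either side of the start, read on the gene's strand only, in 27 (65.9%), against 28.8% of all genes. The tract of Rpl39 began exactly at the start, those of Rpl22, Rpl12 and Rplp0 ran across it, that of Rps6 ended before it, and Rpl11, Rpl39l1 and Rps27l carried none in this window. The match describes these letters only and depends on where the annotation places the start.

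The members were among the brightest signals of the arrays. Of the 50 genes, 38 read above 5000 on every array, between 6211 and 20499, and 20499 was also the highest value on any array. Whether signals this bright still follow the amount of mRNA in proportion was not tested. Rpl39, Rpl39l1, Rpl7l1 and Rps27l read lower but reached an average of 100, the limit for testing, in at least 1 group. The other 8 genes (Rpl26l1, Rpl28, Rpl30, Rpl37-ps2, Rpl3l, Rps13, Rps4x-ps1 and Rps4y2) were under 100 in every group and were not tested. Their values lay between 12.03 and 109. Rpl28, Rpl30 and Rps13 among them belong to the standard ribosome, and the low signal describes these probe sets only.

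Members varied little between plates. The median SD of log2 intensity over the 42 members that reached 100 was 0.044 in WB-F344 with vehicle, 0.023 in WB-F344 with rapamycin, 0.020 in WB311 with vehicle and 0.022 in WB311 with rapamycin. The same median over all 8666 genes that reached 100 was 0.13, 0.11, 0.071 and 0.059. The plates numbered 2 of WB-F344 stood apart in both treatments, with a 3′ minus 5′ log2 difference of the Gapdh control probe sets of 0.34 and 0.17, against -0.12 to -0.042 on the other 10 arrays. The median deviation of the members from their mean over all arrays was -0.062 on the vehicle plate numbered 2, against -0.073 and -0.065 on the other vehicle plates, and -0.0034 on the rapamycin plate numbered 2, against -0.012 and -0.021. Hepatocyte markers were absent or nearly so. Of 6, Ttr alone reached an average of 100 in a group, with values of 90.4 to 115. Of 5 leukocyte markers, Cd14 alone reached 100, and it rose with rapamycin in WB-F344 (log2 difference 0.99, limma adjusted p = 5.59e-05), with an interaction of -0.77 (limma adjusted p = 0.00648). The 5 summed to 634 to 759 with vehicle and 1134 to 1386 with rapamycin in WB-F344, and to 618 to 768 in WB311. Of 3 endothelial markers, Tek alone reached 100, in WB311, and the 3 summed to 57.2 to 78.1 in WB-F344 and 973 to 1226 in WB311. Of 5 biliary and progenitor markers, 2 reached 100 in each WB-F344 group and 3 in each WB311 group, with Epcam under 100 throughout. Krt18 and Krt19 were also under 100 in both WB-F344 groups, Krt7 in WB311 with vehicle and Krt19 in WB311 with rapamycin. The 5 markers summed to 6916 to 9453 in WB-F344 and 5937 to 6735 in WB311. Taken singly with vehicle, 3 of 4 tested were called higher in WB311 and 1 lower, beside 28.0% and 28.9% of all genes. With rapamycin 2 of 3 were called higher and 1 lower, beside 34.2% and 27.0%. Summed signals of 6 mesenchymal markers were 41175 to 52423 in WB-F344 and 12580 to 13346 in WB311. Among them Thy1 was under 100 in every group and Tagln in both WB311 groups. The part of such differences in the results below was not tested.

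**Figure D1:**
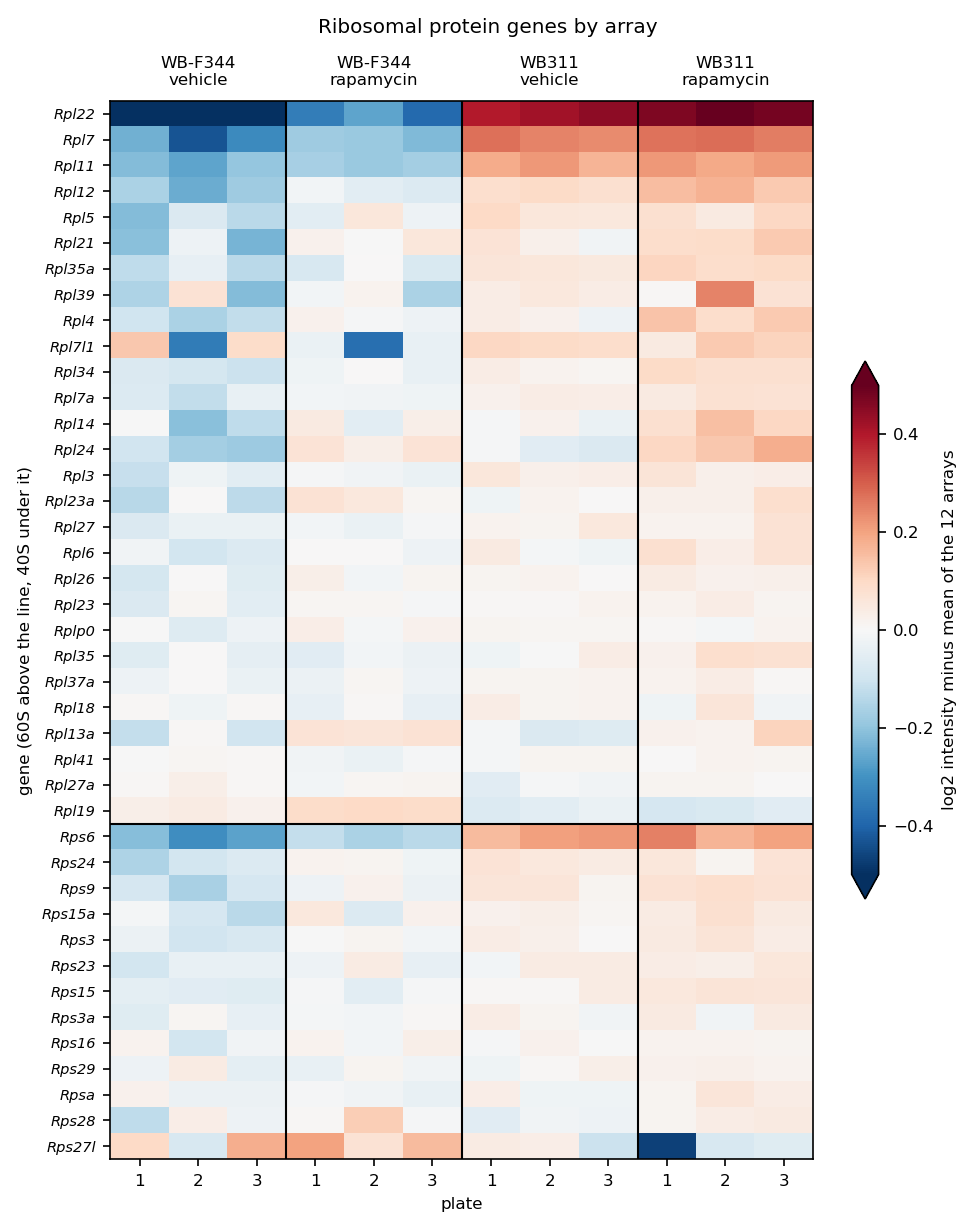
Log2 intensity of 41 tested ribosomal protein genes (rows; Rpl39l1 is left out for its size) on each of the 12 arrays (columns), as the difference from the gene's mean over the arrays; colours stop at 0.5 in either direction. Most rows are pale, and Rpl22, Rpl7, Rpl11 and Rps6 separate the lines, with every WB311 plate above every WB-F344 plate.

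In WB-F344, the fitted difference between rapamycin and vehicle was under 1.2-fold for each ribosomal protein gene tested, and Rpl22 exceeded it when cyclic loess replaced the deposited scaling (log2 difference 0.30) and without rapamycin plate 3 (0.27). None of the 41 genes tested was called by limma at an adjusted p under 0.05 and a fold change of at least 1.2, whereas 25.2% of the 8225 genes tested were called, 7.81% higher and 17.4% lower. At an unadjusted p under 0.05 there were 4 (Rpl12, Rpl21, Rpl22 and Rpl24), beside 3386 of the 8225 genes, and the t-test of the methods called 0 as well. On the brightest probe set of each gene, the log2 differences ran from -0.11 (Rpl7l1) to 0.24 (Rpl22). A second probe set of Rpl7l1 gave -0.20 (SE 0.077, limma adjusted p = 0.0779), with all rapamycin plates below all vehicle plates. The 95% interval lay within 1.2-fold in both directions for 30 of the 41, and reached past it for Rpl12, Rpl13a, Rpl14, Rpl21, Rpl22, Rpl23a, Rpl24, Rpl5, Rpl7, Rpl7l1 and Rps27l.

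The small differences leaned one way. Of the 41, 35 (85.4%) were positive, against 39.3% of all genes tested, and the median was 0.058, against -0.067 over all genes. With cyclic loess in place of the deposited scaling, 40 were positive with a median of 0.10, and after centring of the arrays on their medians 30 were positive with a median of 0.022. The lean was alike in the subunits, with a median of 0.055 over 28 genes of 60S and 0.068 over 13 genes of 40S. On the brightest probe sets, all 3 rapamycin plates lay above all 3 vehicle plates for 17 genes, and below them for 1 (Rpl41). Over all genes the corresponding shares were 12.7% above and 26.5% below.

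The genes with the largest differences were Rpl22, an RNA-binding protein of the large subunit, and Rpl24, which sits at the face of the large subunit toward the small one. Rpl22 read 6350, 6349 and 6211 on the WB-F344 vehicle plates and 7394, 7829 and 7192 on the rapamycin plates. All 3 rapamycin plates were above all vehicle plates, and the log2 difference was 0.24 (SE 0.061, limma adjusted p = 0.0106), a fold change of 1.18. Rpl24 read 9195, 8733 and 8663 with vehicle and 10325, 10040 and 10302 with rapamycin. Here too the groups were separate, with a log2 difference of 0.21 (SE 0.061, limma adjusted p = 0.0254). Both passed the adjusted p and missed the fold change, apart from the call of Rpl22 without rapamycin plate 3 (limma adjusted p = 0.0165) and with cyclic loess (limma adjusted p = 0.00306). Without any fold change limit these were the only members past the test, where 8.95% of all genes passed as higher and 20.4% as lower.

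The members' spread between plates is smaller than that of most genes, and limma's usual moderation draws their variance toward the common value. When the moderated variance was allowed to follow intensity, an alternative chosen after seeing the data, the count at the 1.2-fold limit was still 0. With that variance and no fold change limit, 15 of the 41 passed, all as higher, with fold changes between 1.04 and 1.18, against 9.93% of all genes as higher and 21.9% as lower. They were Rpl12, Rpl13a, Rpl19, Rpl21, Rpl22, Rpl23a, Rpl24, Rpl34, Rpl4, Rpl5, Rpl7, Rps24, Rps3, Rps6 and Rps9. Without the WB-F344 plates numbered 2, 16 members passed as higher and 1 as lower, and 12 genes passed in both fits. The share of all genes without these plates was not computed.

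In WB311, the fitted differences between rapamycin and vehicle were also under 1.2-fold on the brightest probe set of each gene. None of 42 genes was called by limma, against 3.76% of the 8159 genes tested, 1.72% higher and 2.05% lower. At an unadjusted p under 0.05 there was 1 (Rpl24), beside 1563 of all genes, and the t-test of the methods called 0. The 95% interval lay within 1.2-fold for 36 of the 42, with Rpl14, Rpl24, Rpl39, Rpl39l1, Rpl7l1 and Rps27l as the exceptions. The interval of Rpl39l1 also includes the spread of its WB-F344 values, which were under 100. Of the 42, 36 (85.7%) were positive, against 50.9% of all genes, with a median of 0.023 against 0.0032. The median was 0.058 with cyclic loess and 0.017 with median centring. All 3 rapamycin plates lay above all vehicle plates for 18 genes, against 21.3% of all genes, and below them for 1 (Rpl39l1), against 20.1%.

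On the brightest probe sets, Rpl24 had the largest positive difference in WB311. It read 9807, 9456 and 9345 with vehicle and 10576, 10787 and 11160 with rapamycin. The plates were separate, with a log2 difference of 0.19 (SE 0.061, limma adjusted p = 0.129). A dim probe set of Rps24, singled out after its values were seen, differed more, at 0.43 (SE 0.15, limma adjusted p = 0.147). It read 409, 487 and 537 with vehicle and 632, 648 and 643 with rapamycin, and was not called. The bright probe set of Rps24 gave -0.0079. With the variance following intensity and no fold change limit, Rpl24 and Rpl4 passed as higher. These were 2 of 42, against 2.68% of all genes as higher and 3.15% as lower. Without the WB-F344 plates numbered 2, which enter the estimate of the spread, 6 members passed as higher, and the share of all genes was not computed. The lowest value belonged to Rps27l, a p53-induced relative of Rps27. It read 941, 938 and 850 with vehicle and 663, 867 and 879 with rapamycin. The plates overlapped, plate 1 with rapamycin was the lowest of the 12 arrays, and the difference of -0.19 (SE 0.11, limma adjusted p = 0.435) did not exceed the spread between plates.

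**Figure D2:**
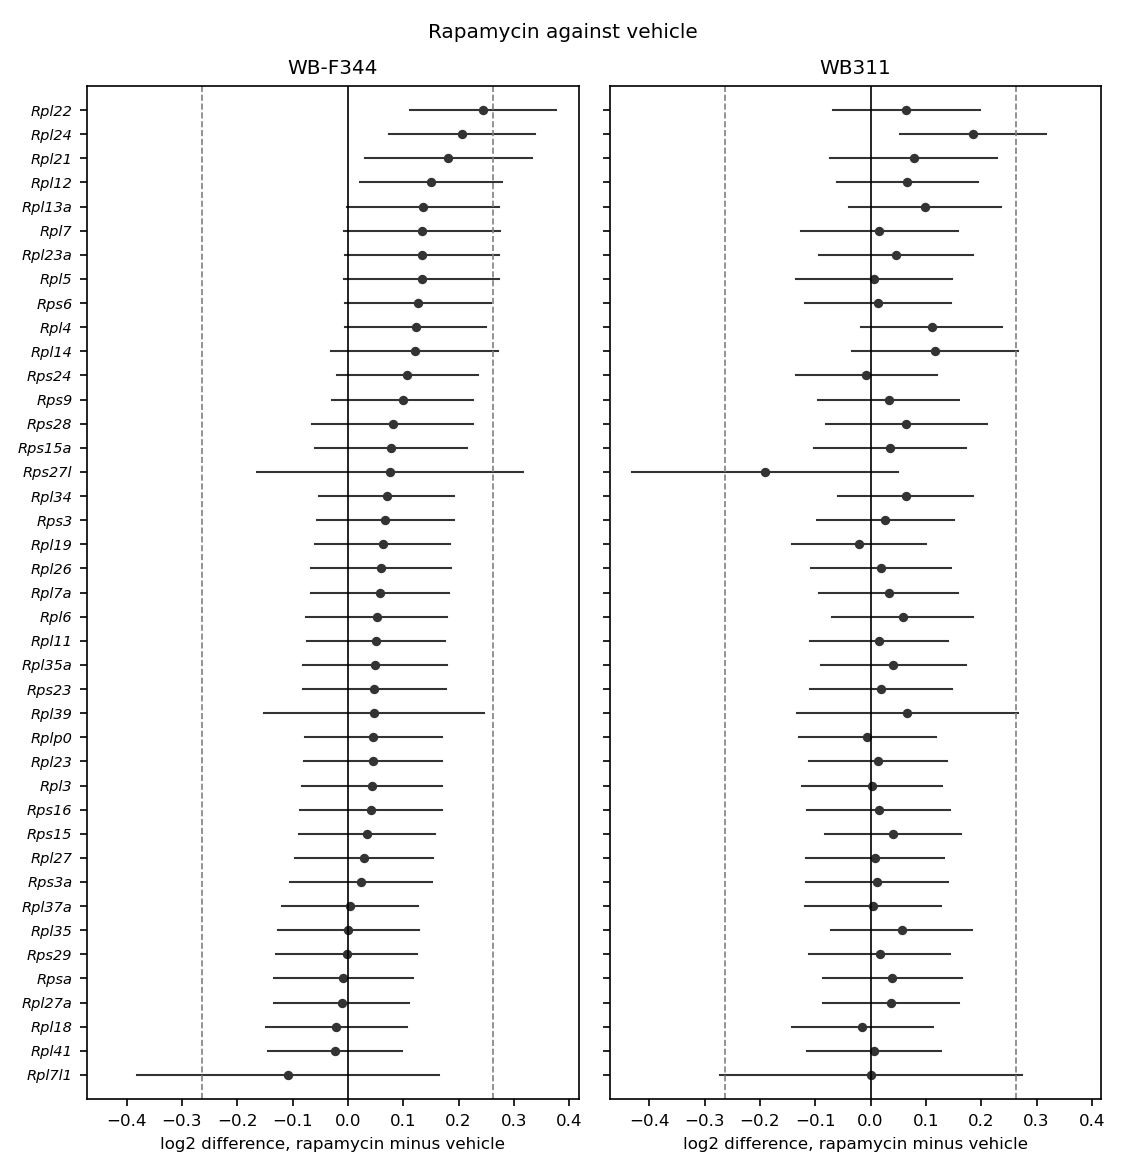
Log2 difference between rapamycin and vehicle for 41 ribosomal protein genes in WB-F344 (left) and WB311 (right), with 95% intervals from limma; dashed lines mark a fold change of 1.2. No point passes the dashed lines in either line, and most points lie to the right of 0.

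The rapamycin differences of the lines were set against each other through the interaction of line and treatment. None of 42 members was called by limma, against 11.6% of 8666 genes, 7.97% higher and 3.61% lower, and 0 members had an unadjusted p under 0.05, beside 2301 of all genes. Of the 41 genes tested in both lines, 30 had the smaller value in WB311, 31 were positive in both and 1 was negative in both. For 11 genes (Rpl12, Rpl13a, Rpl21, Rpl22, Rpl23a, Rpl24, Rpl34, Rpl4, Rpl7a, Rps3 and Rps9) the rapamycin plates lay above the vehicle plates in both lines. Shares of all genes over both lines at once were not computed. In single lines, the rapamycin plates lay above for 12.7% of all genes in WB-F344 and 21.3% in WB311. Positive differences made up 39.3% and 50.9% of all genes, and the interaction was positive for 60.3%. Pearson's r of the 41 differences was 0.40 and Spearman's rho 0.46, across genes of arrays that were normalized together. The median interaction over the members was -0.026, against 0.062 over all genes, and it became 0.0045 with median centring. Rpl22 had an interaction of -0.18 (SE 0.086, limma adjusted p = 0.23), with a 95% interval from -0.37 to 0.0072. With the variance following intensity and no fold change limit Rpl22 was the only member to pass, as lower in WB311. Of all genes, 4.14% passed as lower and 9.16% as higher. Without the WB-F344 plates numbered 2, 6 members passed as lower, and the share of all genes was not computed.

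Rps6, whose protein is the substrate of the S6 kinases, read 13956, 13056 and 13447 with vehicle and 14895, 14520 and 14736 with rapamycin in WB-F344. In WB311 it read 18076, 18672 and 18830 with vehicle and 19282, 18214 and 18600 with rapamycin. The plates were separate in WB-F344 and overlapped in WB311, with log2 differences of 0.13 and 0.013 (SE 0.060 each, limma adjusted p = 0.147 and 0.955). Rplp0, the core of the ribosomal stalk, read 15766, 15086 and 15519 with vehicle and 16150, 15700 and 16021 with rapamycin in WB-F344. The groups overlapped, while each rapamycin plate was above the vehicle plate of its number, and the log2 difference was 0.046 (SE 0.057, limma adjusted p = 0.596). In WB311 its 6 values ran from 15682 to 15966. Rpsa, a small subunit protein also known as the laminin receptor, had a log2 difference of -0.0081 in WB-F344 and 0.039 in WB311 on its brightest probe set, and 0.20 and 0.10 on the dimmest of its 3, and no probe set was called in either line.

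Few ribosomal protein genes were called between the lines at the 1.2-fold limit, beside all genes, which were not matched to them in intensity. With vehicle, 6 of 42 members were called, all higher in WB311, whereas 56.9% of the 8528 genes tested were called, 28.0% higher and 28.9% lower. They were Rpl22, Rpl7, Rps6, Rpl11, Rpl12 and Rpl39l1, the last of which reached the limit for testing in WB311 alone. With rapamycin, 5 of these were again called higher in WB311 and Rps27l was called lower, against 61.2% of 8563 genes, 34.2% higher and 27.0% lower. All 3 WB311 plates lay above all WB-F344 plates for 25 members with vehicle, against 34.2% of all genes, and below them for 2, against 35.3%. With rapamycin the numbers were again 25 and 2, against 41.9% and 33.5%. The 95% interval lay within 1.2-fold for 27 of the 42 with vehicle and for 31 with rapamycin. Of the 42, 39 were positive with vehicle and 37 with rapamycin, with medians of 0.089 and 0.059, beside 0.0026 and 0.058 over all genes, but with cyclic loess 23 and 14 were positive, and the medians were 0.016 and -0.028.

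Rpl39l1, a paralog of the exit tunnel protein Rpl39, was the ribosomal protein gene that separated the lines most. It read 31.9, 19.03 and 18.4 in WB-F344 with vehicle and 23.2, 20.6 and 14.1 with rapamycin. In WB311 it read 3772, 3786 and 3779 with vehicle and 3397, 3404 and 3655 with rapamycin. All WB-F344 values were under the limit of 100. The gene was tested only through WB311, where it is high, so that it had to differ, and its fitted log2 difference rests on WB-F344 values that are no measured level. Against the limit of 100, used in place of those values, the WB311 mean was at least 37.8-fold higher with vehicle and at least 34.9-fold higher with rapamycin. The 3 WB311 rapamycin plates lay below the 3 vehicle plates (log2 difference -0.12, SE 0.20, limma adjusted p = 0.86). This SE is shared by the 4 groups and includes the WB-F344 values, whose SD of log2 intensity was 0.44 with vehicle and 0.37 with rapamycin. It does not measure the spread between the WB311 plates alone.

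Its parent Rpl39 was called in neither treatment. It read 119, 139 and 114 in WB-F344 with vehicle and 136, 137 and 136 in WB311 with vehicle, and the plates overlapped. The log2 difference was 0.14 (SE 0.091, limma adjusted p = 0.198), with a 95% interval from -0.058 to 0.34. The low signal of Rpl39, near the limit for testing, describes its probe set only and gives no amount to set beside that of Rpl39l1. The starts of both genes are printed above, and the pyrimidine tract at the start of Rpl39 has no counterpart in the window of Rpl39l1.

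Rpl22 read between 6211 and 6350 on the WB-F344 vehicle plates, and 12395, 12599 and 12832 on those of WB311. With rapamycin it read 13000, 13472 and 13097 in WB311, against 7192 to 7829 in WB-F344. The lines were wide apart in both treatments, with fold changes of 2.00 with vehicle and 1.77 with rapamycin (SE 0.061 each on the log2 scale, limma adjusted p = 2.41e-08 and 1.28e-07). Its paralog Rpl22l1 had no probe set of its symbol alone.

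Rpl7, a large subunit protein, read 9842, 8619 and 9322 in WB-F344 and 14082, 13809 and 13696 in WB311 with vehicle. The log2 difference was 0.58 (SE 0.065, limma adjusted p = 6.66e-06), and 0.47 with rapamycin (limma adjusted p = 4.17e-05). A dimmer probe set of Rpl7 gave 0.38 with vehicle (SE 0.15, limma adjusted p = 0.0418) and 0.17 with rapamycin (SE 0.15, limma adjusted p = 0.347), the latter with overlapping plates. Its paralog Rpl7l1 was called in neither treatment, and its 2 probe sets differed in sign with vehicle, at 0.14 (SE 0.13) and -0.18 (SE 0.077). Within arrays, Rpl7l1 minus Rpl7 was lower in WB311 by a log2 value of -0.34 (exact permutation test, two-sided, line labels permuted within treatments, 400 arrangements, smallest possible p 0.005, p = 0.015 before and after adjustment over 2 pairs), and with the dimmer probe set of Rpl7 the value was -0.084 (exact permutation p = 0.405). With the other probe set of Rpl7l1 the value was -0.61, and with cyclic loess -0.31 (exact permutation p = 0.005 and 0.03).

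Rps6 was higher in WB311 with vehicle, at the values given above, by 0.46 on the log2 scale (SE 0.060, limma adjusted p = 3.04e-05). With rapamycin the difference was 0.35 (limma adjusted p = 0.000282), and 0.26 with cyclic loess, just under the fold change limit. In both treatments every WB311 plate exceeded every WB-F344 plate.

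Rpl11 and Rpl5 form a particle with 5S rRNA and can bind the p53 regulator Mdm2. Rpl11 read 11533, 11163 and 11742 in WB-F344 and 15273, 15606 and 15099 in WB311 with vehicle. The difference was 0.42 (SE 0.057, limma adjusted p = 4.46e-05), and 0.38 with rapamycin (limma adjusted p = 8.33e-05). Rpl5 was not called, with a difference of 0.21 with vehicle (SE 0.064, limma adjusted p = 0.0128) and 0.085 with rapamycin (limma adjusted p = 0.269).

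Rpl12, at the base of the stalk, read 15324, 14407 and 15106 in WB-F344 and 18113, 18282 and 18082 in WB311 with vehicle. The plates were separate and the difference was 0.28 (SE 0.059, limma adjusted p = 0.00119), a fold change of 1.22. It fell under the limit of 1.2-fold without WB-F344 vehicle plate 2 (0.26), with cyclic loess (0.20) and with array weights (0.26). With rapamycin the difference was 0.20 and missed the limit.

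Rps27l was the single member called lower in WB311. With rapamycin it read 1051, 963 and 1022 in WB-F344 and 663, 867 and 879 in WB311, and the plates were separate. The difference was -0.35 (SE 0.11, limma adjusted p = 0.0155). The call was lost without WB311 rapamycin plate 1 (difference -0.21, limma adjusted p = 0.0709) and without WB-F344 rapamycin plate 1 (limma adjusted p = 0.0501). With vehicle the difference was -0.078 and the plates overlapped.

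**Figure D3:**
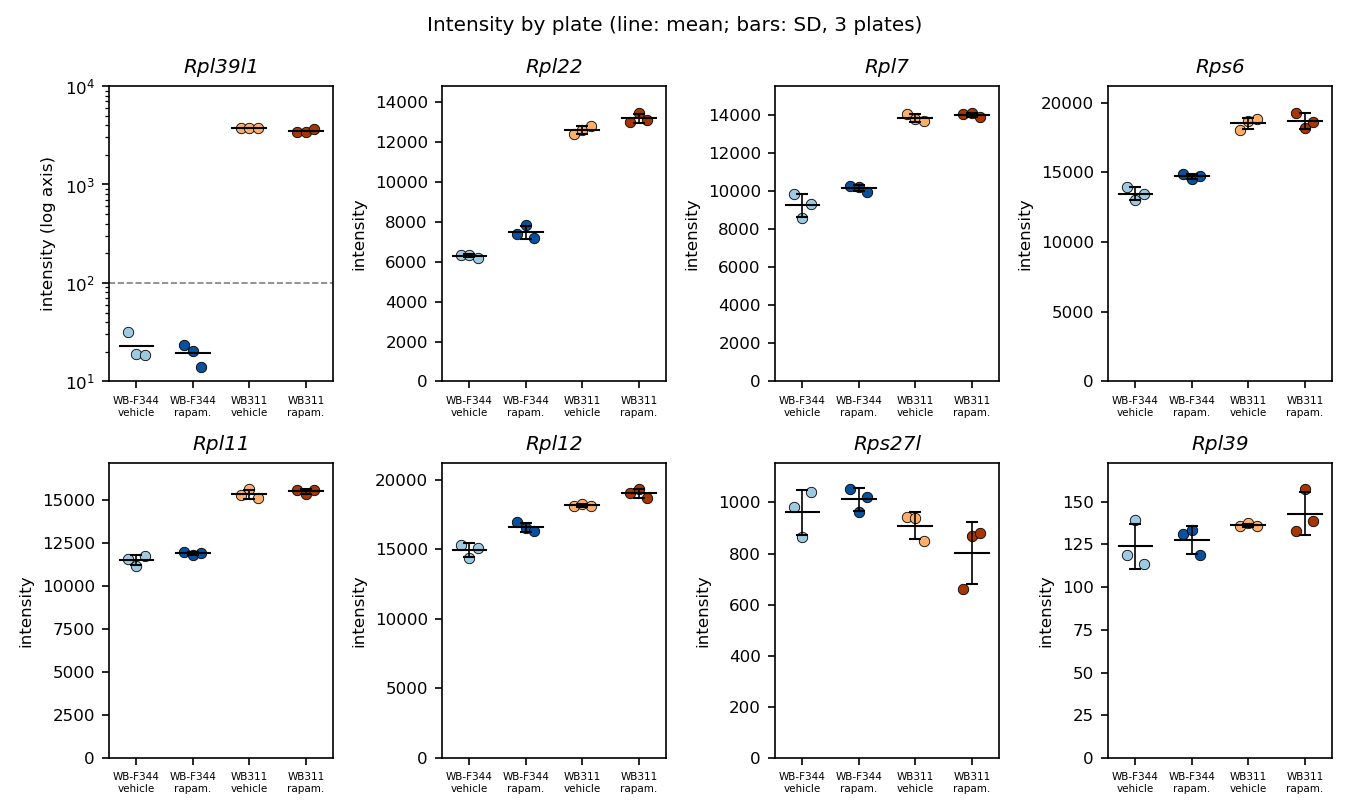
Intensity on each plate (points), with the mean (line) and SD (bars, 3 plates; not drawn for Rpl39l1, whose axis is logarithmic with a dashed line at 100) in the 4 groups. WB311 plates lie above WB-F344 plates for Rpl39l1, Rpl22, Rpl7, Rps6, Rpl11 and Rpl12. Rpl39, which read near 100, overlaps between the lines.

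The rest of the members differed less between the lines. Past the adjusted p with vehicle, but under 1.2-fold, were Rpl21, Rpl35a, Rpl5, Rps24 and Rps9, all higher in WB311, where 31.7% of all genes passed as higher at any fold change and 32.1% as lower. With rapamycin these were Rpl12 and Rpl35a, higher, and Rpl19, lower (log2 difference -0.17, SE 0.056, limma adjusted p = 0.02), beside 38.0% and 29.5% of all genes. Rpl19 read 17916, 18055 and 17830 in WB-F344 and 16733, 16945 and 17134 in WB311 with vehicle, and all WB311 plates lay below those of WB-F344 in both treatments. With the variance following intensity and no fold change limit, 24 members passed as higher and 1 as lower with vehicle, against 32.5% of all genes in each direction. With rapamycin 16 passed as higher and 2 as lower, against 38.5% and 29.7%. Rps24 was not called on its bright probe set, whereas a dim one, singled out after its values were seen, was called higher in WB311 with vehicle (0.59, SE 0.15, limma adjusted p = 0.00421) and with rapamycin (0.99, limma adjusted p = 7.77e-05). That probe set read 261, 405 and 300 in WB-F344 and 409, 487 and 537 in WB311 with vehicle. Of the 36 probe sets with several symbols, 35 were tested, and 1 was called, as higher, with rapamycin in WB-F344 (against 23.0% of all probe sets tested) and 0 in WB311 (3.35%) or in the interaction (10.0%). Between the lines 2 were called with vehicle, as higher in WB311 (56.0%), and 0 with rapamycin (59.3%).

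**Figure D4:**
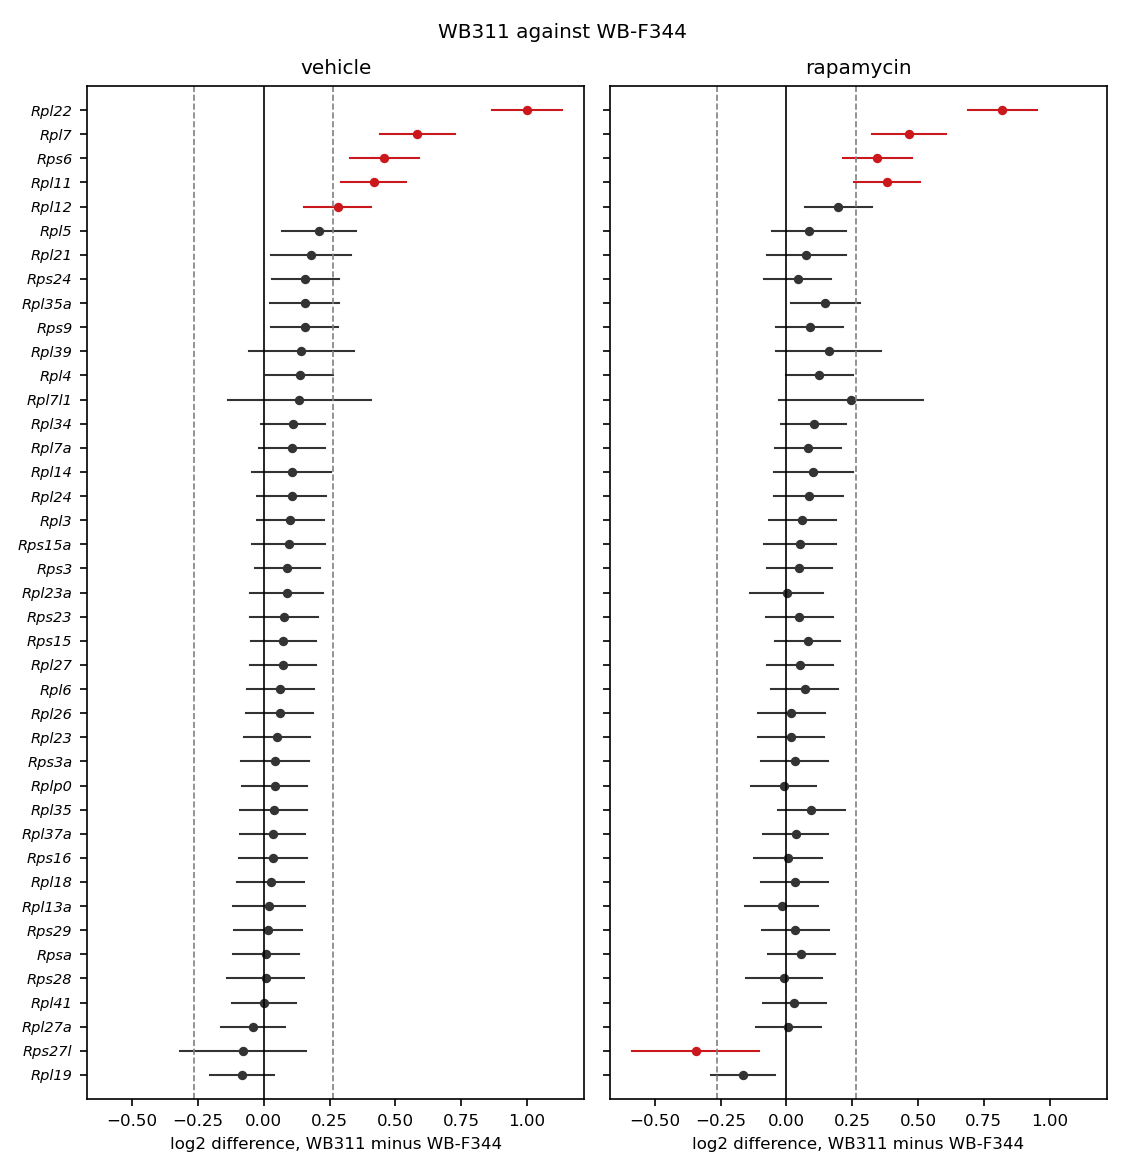
Log2 difference between WB311 and WB-F344 for 41 ribosomal protein genes with vehicle (left) and rapamycin (right), with 95% intervals from limma; red marks called genes and dashed lines a fold change of 1.2 (Rpl39l1 is left out, since it was under 100 in WB-F344). Rpl22, Rpl7, Rps6 and Rpl11 stand clear of the others in both treatments.

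Other genes around the ribosome were read beside the members. The lists were chosen with earlier results of these data in view. Rack1, a scaffold protein on the small subunit, was the single gene of 4 other ribosome parts with a probe set, and its log2 difference with rapamycin was 0.069 in WB-F344 and 0.041 in WB311, neither called. Of 11 genes for translation factors with TOP mRNAs, 3 rose with rapamycin in WB-F344, 0 fell, beside 7.81% and 17.4% of all genes, and the median was 0.092, with the same 3 and 0 under cyclic loess and median centring. In WB311, 1 rose, beside 1.72% of all genes. With cyclic loess Eif3f rose there too.

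Eif4b, a cofactor of the RNA helicase eIF4A and an S6 kinase substrate, rose in both lines. It read 1112, 989 and 1154 with vehicle and 1529, 1571 and 1537 with rapamycin in WB-F344, a log2 difference of 0.51 (limma adjusted p = 0.000291). In WB311 it read 1700, 1732 and 1676 with vehicle and 2478, 2610 and 2660 with rapamycin, a difference of 0.60 (limma adjusted p = 0.00136). Eif3f and Eif3h, subunits of initiation factor eIF3, rose in WB-F344 by 0.32 each (limma adjusted p = 0.00197 and 0.00184). In WB311 their values were 0.24 and 0.17, and the interactions of -0.083 and -0.15 were not called.

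Of 6 TOP mRNAs with other roles, 0 were called with rapamycin in either line, and 3 were called higher and 1 lower in WB311 than in WB-F344 with vehicle, beside 28.0% and 28.9% of all genes. Among those called higher, Hnrnpa1 fell under the fold change limit with cyclic loess (0.25) and array weights (0.22). It also did so without the WB-F344 plates numbered 2 and without WB-F344 vehicle plate 2 alone (0.19 each). Gas5, a noncoding host of small nucleolar RNAs, differed by 0.78 between the lines with vehicle (limma adjusted p = 2.91e-06).

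Of 18 genes that assemble ribosomal subunits, 4 fell with rapamycin in WB-F344 (Grwd1, Heatr3, Mrto4 and Ltv1) and 0 rose, beside 17.4% and 7.81% of all genes. The median was -0.20, beside -0.067 over all genes, with 2 falls under cyclic loess, 7 under median centring and 5 without the plates numbered 2. Without rapamycin plate 2 alone 8 fell, and without vehicle plate 2, vehicle plate 3 or rapamycin plate 3 there were 2. Shares of all genes called under these alternatives were not computed. The median over all genes was -0.0021 with cyclic loess and -0.10 with median centring. Grwd1, a chaperone of the ribosomal protein L3, read 345, 329 and 324 with vehicle and 257, 258 and 250 with rapamycin. Its difference was -0.38 (limma adjusted p = 0.00142), and the call held without any 1 plate. Heatr3, which helps to bring L5 to the nucleus, had a difference of -0.51 (limma adjusted p = 0.0382), which lost its call without vehicle plate 2 or 3 or rapamycin plate 1 or 3. Ltv1, a small subunit assembly factor, lay at the fold change limit, at -0.26, and lost its call without vehicle plate 2 or 3 or rapamycin plate 3, while Mrto4, an assembly factor of the large subunit, had a difference of -0.32 (limma adjusted p = 0.00759). With cyclic loess neither was called, at -0.23 for Mrto4 (limma adjusted p = 0.0554) and -0.17 for Ltv1. In WB311, 0 of the 18 were called by limma, and the median was -0.11. Heatr3 fell there under the replicate block (-0.34, limma adjusted p = 0.0294) and with array weights (-0.41, limma adjusted p = 0.0397). The interaction was called for Grwd1 alone, at 0.36 (limma adjusted p = 0.0328), and was lost with cyclic loess and without any single plate other than the WB-F344 plates numbered 2 and WB311 rapamycin plate 1. Of 5 genes of ribosome recycling and rescue, Pelo, which rescues stalled ribosomes, fell in WB-F344 (-0.27, limma adjusted p = 0.0105). Its fold change was under the limit with cyclic loess (-0.18), with array weights (-0.24) and without the plates numbered 2 (-0.25). The same held without vehicle plate 2 or rapamycin plate 3 alone (-0.25 each).

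Of the genes that control S6 and TOP mRNAs, 11 were tested with vehicle and 7 were called higher in WB311 than in WB-F344, 0 lower, beside 28.0% and 28.9% of all genes. The 7 were Rps6ka3, Eif4ebp1, Eif4ebp2, Larp1, Mtor, Pdcd4 and Eef2k, and 8 were called with cyclic loess, with the replicate block and without the WB-F344 plates numbered 2. Eif4ebp2 lost its call without WB-F344 vehicle plate 3 or WB311 vehicle plate 1, and without the former Rps6ka5, a kinase of the MSK family, entered the test and was called lower, with values under 100 in WB311, which made 6 higher and 1 lower. Larp1, which binds the TOP start and holds such mRNAs back from translation, read 1538, 1720 and 1493 in WB-F344 and 2047, 2056 and 2070 in WB311. The log2 difference was 0.38 (limma adjusted p = 0.00056). Eif4ebp1, which encodes a 4E-binding protein, differed by 0.73 and Mtor by 0.72 (limma adjusted p = 4.89e-05 and 0.00237). With both lines under rapamycin, 12 genes of the list were tested. Of these, 6 were called higher in WB311 and 1 lower, beside 34.2% and 27.0% of all genes. Rps6kb1, the main S6 kinase, was called in no comparison.

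With rapamycin in WB-F344, Pdcd4 was the single gene of that list called, of 11 tested, beside 7.81% of all genes as higher and 17.4% as lower. In WB311 there was none, beside 1.72% and 2.05% of all genes. Pairing the plates by number added Rps6ka3 and Rps6ka4, kinases of the RSK and MSK families, as lower in WB-F344 (-0.28 and -0.38, limma adjusted p = 0.0212 and 0.0029), and without the plates numbered 2 these and Eif4ebp1 were called lower. Pdcd4 encodes an inhibitor of eIF4A that S6 kinase signalling marks for destruction, and its probe set is of a kind that may bind other transcripts. It read 412, 422 and 447 with vehicle and 611, 661 and 683 with rapamycin in WB-F344, a rise of 0.61 (limma adjusted p = 0.00179). In WB311 the difference was -0.023, and the interaction of -0.63 was called (limma adjusted p = 0.0241), but was lost without WB-F344 rapamycin plate 3 and without WB311 vehicle plate 1 or 3.

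**Figure D5:**
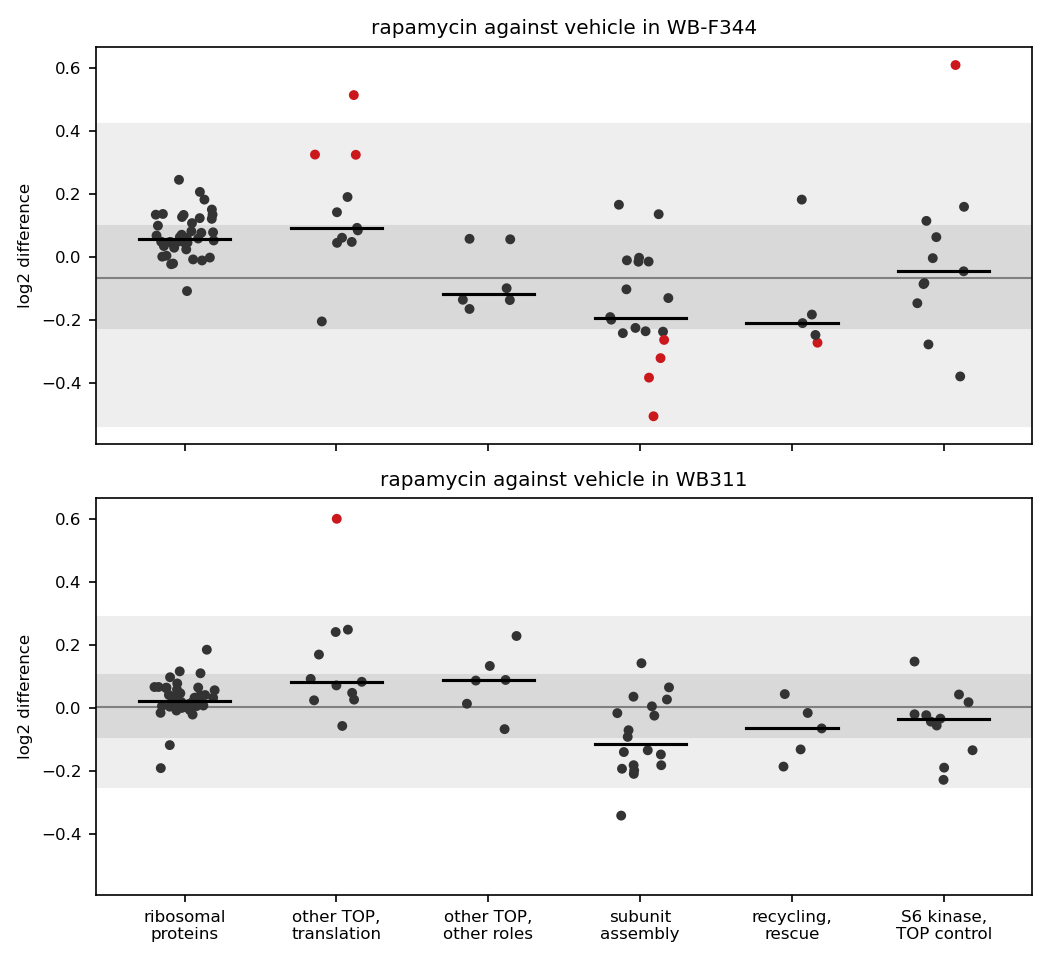
Log2 difference between rapamycin and vehicle (vertical axis) for each tested gene of the ribosomal proteins and of 5 related lists in WB-F344 (top) and WB311 (bottom); red points are called, black lines are list medians, and grey bands hold the middle 50% and 90% of all genes. Ribosomal proteins cluster just above 0 in both panels, while the subunit assembly genes lie lower in WB-F344, with a median of -0.20.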

How the data were processed

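The deposited values are intensities on a linear scale, which the authors normalized with Robust Multiarray Average (RMA; version not given in the sources used here). Its quantile step gives arrays a common distribution, so a shift shared by the brightest probe sets, as most of these are, would be reduced. Intensities were turned to log2 here. All 12 arrays were fitted with limma 3.58.1 in R 4.3.3 (statmod 1.5.0) as 4 groups of 3 plates, over all probe sets other than controls, with columns matched to samples by label (0 columns left over).

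A probe set was tested where its mean intensity reached 100 in 1 of the groups compared, and called at a Benjamini-Hochberg adjusted p under 0.05 over all tested probe sets and a fold change of at least 1.2, the thresholds of the study's methods. A gene was read from its brightest probe set. Shares of all genes serve as background, and these genes were not matched to the members in intensity. Those of calls were computed for the main fit and for the variance following intensity with all plates, and not for the other alternatives. Probe sets were named by the array annotation, and 48 of the 50 gene identifiers were in the RefSeq table used. Genes named are the called members (up to 10 in each direction), paralogs, Rps6, Rplp0 and Rpsa, and up to 6 genes of each list by p; Rpl24, Rpl5, Rpl19 and Rps24 were added after their values were seen. The members and lists were chosen with earlier results of these data known.

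Alternatives to the main settings covered the intensity filter, the fold change limit and its order, the groups fitted, cyclic loess, median centring, array weights, the methods' t-test, replicate blocks, other probe sets, and leaving out plates. Letting the variance follow intensity, taking its prior from the tested probe sets, and the fits without the plates numbered 2 under that variance were chosen after seeing the data. The steps were tested on simulated data. Plates that share a number in WB-F344 moved together across probe sets around their group means (correlations of 0.56 to 0.87). Plates 1 and 3 also did so crosswise. Plates of WB311 that share a number did not move together (-0.14 to -0.00026). The main fit did not pair plates, and pairing by number entered only as the replicate block. No 2 arrays held identical values. Precision is limited by 3 arrays per group. Other lines of the study (GN5, H5D) were not analysed here.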

Additional observations from a re-analysis of the deposited data

How the results depend on the processing

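The number of ribosomal protein genes called was 0 for rapamycin in either line and for the interaction under most alternatives, and between 5 and 8 for the line comparisons at the 1.2-fold limit. In WB-F344 the count was 2 with no fold change limit and 1 with cyclic loess (Rpl22, log2 difference 0.30, limma adjusted p = 0.00306). Leaving out 1 plate gave 0 to 1 in WB-F344 (1 without rapamycin plate 3), 0 to 0 in WB311 and for the interaction, and 5 to 6 for each line comparison. With no fold change limit the vehicle line comparison gave 11. With the variance following intensity and no fold change limit, both added after seeing the data, the counts were 15 (WB-F344), 2 (WB311), 1 (interaction), 25 (lines with vehicle) and 18 (lines with rapamycin). Without the WB-F344 plates numbered 2 they were 17, 6, 6, 27 and 24, and the shares of all genes there were not computed. The median member difference was 0.10 with cyclic loess and 0.022 with median centring in WB-F344, 0.058 with cyclic loess in WB311, 0.0045 with median centring for the interaction, 0.016 with cyclic loess for the lines with vehicle, and -0.028 with cyclic loess and 0.081 with median centring for the lines with rapamycin. The cause of these shifts was not tested. With the other probe set of Rpl7, its pair with Rpl7l1 gave -0.084 (exact permutation p = 0.405).

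With a replicate block, which pairs plates by number within a line, the counts were 0 in WB-F344, 0 in WB311, 0 for the interaction, and 6 and 6 for the lines, and no call of a member named here changed. The methods' t-test, with equal or unequal variances, gave 0, 0, 6 and 5 for the 4 comparisons it covers, without Rps27l (adjusted p = 0.0721 and 0.122). With 3 arrays per group, the median standard error of a member's difference was 0.059 on the log2 scale.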
